A study of Mus musculus with 204 samples.

Results

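Among neurons picked from the mouse distal colon, cells with a high level of Sprr1a were compared with cells that had little or none of it. Sprr1a encodes small proline-rich protein 1A, a protein of the cornified envelope of skin that is also known as a transcript switched on in peripheral neurons after their axons are cut. A cell was taken as a neuron where at least 3 of 5 neuronal genes (Elavl3, Elavl4, Snap25, Stmn2 and Syt1) reached 2 on the log2(RPKM + 1) scale. RPKM stands for the reads of a gene divided by its length in kilobases and by the library's reads in units of 1000000. Of 204 picked cells, 149 were neurons by this rule. Sprr1a was at 4 or more in 59 of them (called Sprr1a-high) and below 2 in 73 (called Sprr1a-low), and these groups were compared. The other 17 neurons lay between the limits and were left out, as were the 55 cells outside the neuron rule.

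The cells came from VGLUT2-tdTomato mice, in which a red fluorescent protein reports the gene of the vesicular glutamate transporter VGLUT2 (Slc17a6). The outer muscle with its myenteric plexus (the ganglia that lie between the muscle coats) was dissociated, the cells were kept in culture overnight, and red cells were picked by pipette. Every cell of both groups went through these steps, and the labels name no untreated control, age, sex, animal or culture. The 3 plates hold 66, 66 and 72 cells.

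Because the labels tie no cell to an animal, each plate counts as 1 sample, cells are not replicates, and no test was made. Differences are means of Sprr1a-high minus means of Sprr1a-low neurons within a plate. The ± values are the SD over the 3 plates and describe how far the plates differ. Whether Sprr1a was present in the gut wall before dissociation was not tested.

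Peripheral neurons with a severed axon switch from transmission to regrowth. Transcription factors such as ATF3, c-Jun and SOX11 are known to drive much of this change, and Sprr1a, Gap43, Gal and Ecel1 are among the genes known to follow in sensory and motor neurons. Enteric neurons of the colon divide broadly into cholinergic cells, which make acetylcholine and need choline acetyltransferase (Chat), and nitrergic cells, which need nitric oxide synthase (Nos1).

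Sprr1a was at 4 or more in 39.6% of neurons (59 of 149, exact 95% interval 31.7 to 47.9%). By plate these were 30 of 53 neurons (56.6%), 12 of 43 (27.9%) and 17 of 53 (32.1%), plate 1 having the largest share. These intervals are Clopper-Pearson intervals and cover counting error only. Some cells had near-equal values in several genes. Cells 31 and 39 of plate 1, both Sprr1a-high, had Penk at 7.86 and 7.96 and Lgals3 at 10.98 and 11.06. On plate 3, the Sprr1a-low cells 16 and 17 had Penk at 13.11 and 13.08, and cells 5 and 36 had P2rx2 at 8.07 and 8.01. Whether such pairs are separate cells was not tested, and all counts, intervals and checks that leave out 1 cell treat them as separate. Of the 55 cells outside the neuron rule, 2 had Sprr1a at 4 or more (3.64%, interval 0.444 to 12.5%). Both of these lay on plate 2, at 10.18 and 5.80, and none of the 5 neuronal genes reached 2 in either. The first had the deepest library of the series, with 14310837 reads, and carried epithelial, mesothelial, leukocyte and interstitial cell lists; the second carried the smooth muscle list. A cell carries a list where at least 50% of its members reach 2.

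These values chose the groups and are given as a description. In Sprr1a-high neurons the median of Sprr1a was 7.22, 6.85 and 6.05, and the highest values were 10.61, 9.56 and 11.05 on plates 1, 2 and 3. The lowest Sprr1a-high neurons stood at 4.43, 4.37 and 4.11. The highest of the neurons left out between the limits stood at 3.55, 3.84 and 4.00, the last just under the limit. The highest Sprr1a-low neurons stood at 1.89, 1.15 and 1.13. Sprr1a was listed at 0 in 4 of the 15 Sprr1a-low neurons of plate 1, in 15 of 26 on plate 2 and in 21 of 32 on plate 3.

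**Figure D1:**
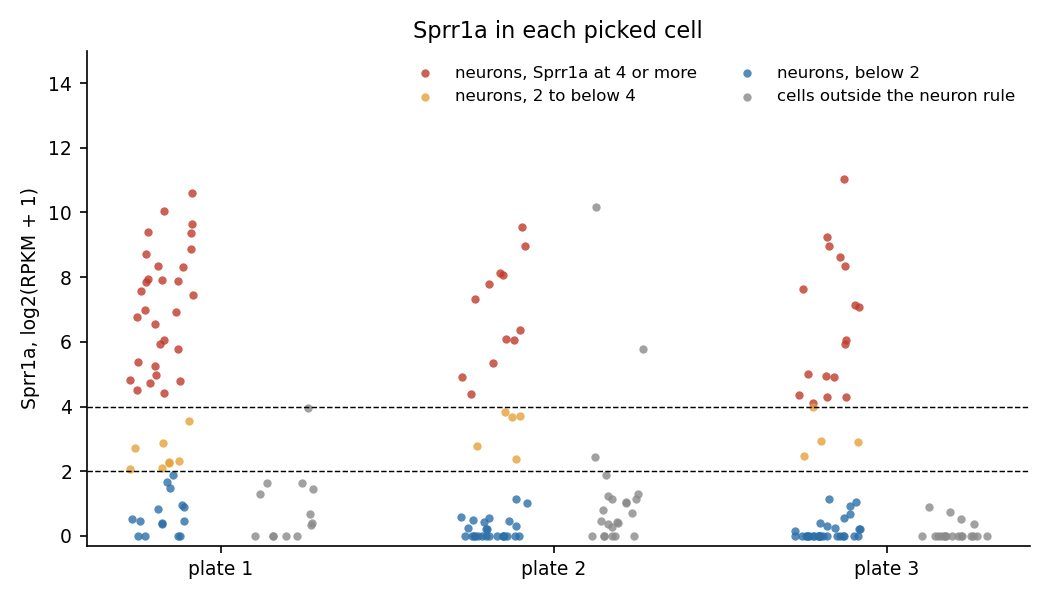
Sprr1a in each of the 204 picked cells, as log2(RPKM + 1), by plate; red, Sprr1a-high neurons, orange, neurons between the limits, blue, Sprr1a-low neurons, grey, cells outside the neuron rule; dashed lines mark the limits of 4 and 2. Neurons reach up to 11.05, and 2 of the 55 grey points lie above the upper limit, both on plate 2.

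The read totals implied by the deposited values ran from 453108 to 14310837 per cell. Median totals of Sprr1a-high and Sprr1a-low neurons were 3991716 and 3160110 on plate 1, 4660917 and 3461625 on plate 2, and 5586716 and 5681540 on plate 3. The median number of genes at 2 or more was larger in Sprr1a-high neurons on every plate, at 8906 against 7839, 9824 against 9248 and 9137 against 8781. The median share of mitochondrial genes in the summed RPKM was lower in Sprr1a-high neurons on every plate, at 7.58% against 7.65%, 5.19% against 6.36% and 5.72% against 8.30%, and its highest values were 19.9%, 16.5% and 23.2% against 28.5%, 34.5% and 59.0%. The differences of all 11873 genes that entered the comparison (mean of at least 1 over the compared neurons) had a median of +0.34, with 0.39, 0.28 and 0.31 on plates 1, 2 and 3. Each difference below is therefore to be read against a general shift of that size. Where each cell's own mean over genes was first taken off, the median of all genes was 0.00, and such values are called centred. The part of depth, detected genes or mitochondrial share in the results was not tested beyond the alternatives in the closing section. A panel of 13 neuronal genes that the rule did not use was carried by all Sprr1a-high neurons and by 72 of the 73 Sprr1a-low neurons.

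A gene was counted where its difference was at least 1 with the same sign on all 3 plates. By this rule 56 genes were higher in Sprr1a-high neurons (0.472% of the 11873) and 1 was lower (0.00842%), P2rx2. A difference above 0 on every plate was found for 5117 genes (43.1%) and one below 0 on every plate for 398 (3.35%). With centred cells 11 genes were higher (0.0926%) and 5 lower (0.0421%), and 16% of genes lay above 0 and 18.1% below 0 on every plate. All 11 were among the 56, and P2rx2 was among the 5. The log2 ratio of mean RPKM, which weights cells with high levels, gave 11 higher (0.0926%) and 19 lower genes (0.16%); only Adcyap1 of the 56 was among the former, and 54 of the 56 stayed above 0 on every plate. Leaving out any 1 cell changed the sign of none of the 57 counted genes on any plate, but took 36 of them below a difference of 1 on a plate. The groups overlapped on every plate for all 24 leading genes, which are the 12 in each direction with the largest smallest-plate difference.

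The leading higher genes were Penk, Ecel1, Lgals3, Ezr, Pcgf5, Vwc2, Stac, Gem, Tmem167b, Dnajb9, Adra2a and Mir23b. The Mir23b row lies inside 2010111I01Rik and opposite Fancc, and the strand setting of the counting is not given, so that its reads cannot be told apart from theirs. Mir23b is also very short (chr13:63300484-63300557), so that a few reads give a large RPKM. Penk encodes proenkephalin, the precursor of the enkephalin opioid peptides, which excitatory enteric neurons are known to make. On plate 1 Penk ran from 3.06 to 14.18 with a median of 12.37 in Sprr1a-high neurons, and from 3.48 to 13.79 with a median of 10.14 in Sprr1a-low neurons. On plate 2 it ran from 2.99 to 13.68 (median 11.42) against 2.07 to 14.12 (median 9.07). On plate 3 it ran from 2.63 to 13.64 (median 12.48) against 2.58 to 13.34 (median 9.91). In both groups Penk was near 3 in some cells and above 11 in many, and the groups overlapped over nearly the whole range. The low cells stood at the level of the 55 cells outside the neuron rule, whose medians of Penk were 4.08, 2.99 and 3.66. The difference in means was 2.63, 2.43 and 1.99 (2.35 ± 0.33). Penk overlaps A830012C17Rik on the opposite strand, which was also among the 56, and their reads cannot be told apart here.

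Ecel1 encodes an endothelin-converting enzyme-like protease of neurons that is known to be induced by nerve injury. On plate 1 Ecel1 ran from 0 to 8.39 with a median of 4.39 in Sprr1a-high neurons, and from 0 to 6.08 with a median of 0.18 in Sprr1a-low neurons. On plate 2 the medians of Ecel1 were 3.92 and 0.38, with highest values of 6.93 and 7.68. On plate 3 the medians were 6.24 and 1.81, with highest values of 7.40 and 7.54. Ecel1 was thus low or undetected in most Sprr1a-low neurons of plates 1 and 2 and overlapped between the groups on every plate. It reached 2 in 22 of 30, 10 of 12 and 14 of 17 Sprr1a-high neurons, against 5 of 15, 10 of 26 and 16 of 32 Sprr1a-low neurons. The difference for Ecel1 was 2.34, 1.82 and 2.12 (2.09 ± 0.26), and 1.92, 1.53 and 1.80 with centred cells.

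Lgals3 encodes galectin-3, a sugar-binding lectin. Its medians in Sprr1a-high and Sprr1a-low neurons were 9.09 and 6.29 on plate 1, 7.43 and 4.58 on plate 2, and 8.42 and 6.88 on plate 3. The difference for Lgals3 was 2.11, 1.57 and 2.10 (1.92 ± 0.31). In the cells outside the neuron rule the medians of Lgals3 were 8.18, 9.87 and 10.0, above those of Sprr1a-low neurons on each plate. Macrophages also make galectin-3; the leukocyte list of 8 genes was carried by 4 of 30 Sprr1a-high and 0 of 15 Sprr1a-low neurons on plate 1, and by no compared neuron on plates 2 and 3. The summed level of that list ran from 0 to 4160 RPKM in Sprr1a-high and from 0 to 96.1 RPKM in Sprr1a-low neurons of plate 1. On plate 2 it ran from 0.450 to 43.9 RPKM against 0 to 165 RPKM, and on plate 3 from 0 to 51.7 RPKM against 0 to 60.0 RPKM. Ptprc, the common leukocyte antigen, was at 0 in all Sprr1a-low neurons of plate 2 and all Sprr1a-high neurons of plate 3, and the complement gene C1qa in all Sprr1a-low neurons of plate 1. Cd68, a lysosomal glycoprotein gene of macrophages, differed by 2.16, 0.63 and 0.19, and on plate 1 the lysozyme gene Lyz2 differed by 1.27 and C1qa by 0.93, while on plates 2 and 3 these lay between -0.44 and 0.07. The part of RNA from leukocytes or other cells in the difference of Lgals3 was not tested further. Without the neurons that carry a smooth muscle, fibroblast, glia, endothelial, leukocyte, epithelial or mesothelial list, the mean difference for Lgals3 was 1.50.

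Ezr encodes ezrin, which links the plasma membrane to actin. Its difference was 1.77, 1.98 and 1.56 (1.77 ± 0.21), and it reached 2 in 26 of 30, 11 of 12 and 11 of 17 Sprr1a-high neurons against 9 of 15, 14 of 26 and 10 of 32 Sprr1a-low neurons. Ezr overlaps Sytl3 on the opposite strand. Vwc2, which encodes a secreted antagonist of bone morphogenetic proteins also called Brorin, differed by 1.70, 1.93 and 1.49 (1.71 ± 0.22); by the ratio of mean RPKM the values for Vwc2 were 0.10, 1.85 and 1.22. In Sprr1a-low neurons the median of Vwc2 was 0.06, 0.00 and 0.05, against 3.15, 2.65 and 3.44 in Sprr1a-high neurons. Vwc2 was therefore near 0 in most Sprr1a-low cells of each plate, although the highest of them reached 7.40, 4.26 and 5.39.

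Stac, an adaptor protein that binds L-type calcium channels, differed by 1.46, 2.69 and 2.43 (2.19 ± 0.65). Gem, a small GTP-binding protein that inhibits voltage-gated calcium channels, differed by 1.53, 1.95 and 1.45 (1.64 ± 0.27). Adra2a, the alpha-2A adrenergic receptor through which noradrenaline inhibits enteric neurons, differed by 1.36, 2.12 and 1.44 (1.64 ± 0.42). Pcgf5, a polycomb complex subunit, differed by 2.04, 1.52 and 1.53 (1.70 ± 0.30). Dnajb9, a co-chaperone of the endoplasmic reticulum, differed by 1.85, 1.39 and 1.94 (1.73 ± 0.30), and Tmem167b by 1.39, 1.40 and 1.61 (1.47 ± 0.12). Tmem167b showed the least spread among plates of the 12 genes, and in Sprr1a-high neurons its lowest values were 2.21, 3.75 and 2.42, against 0 on each plate in Sprr1a-low neurons. Of the 12 leading higher genes, 10 were still counted with centred cells; Tmem167b and Adra2a were below 1 on plate 1, at 0.98 and 0.95.

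**Figure D2:**
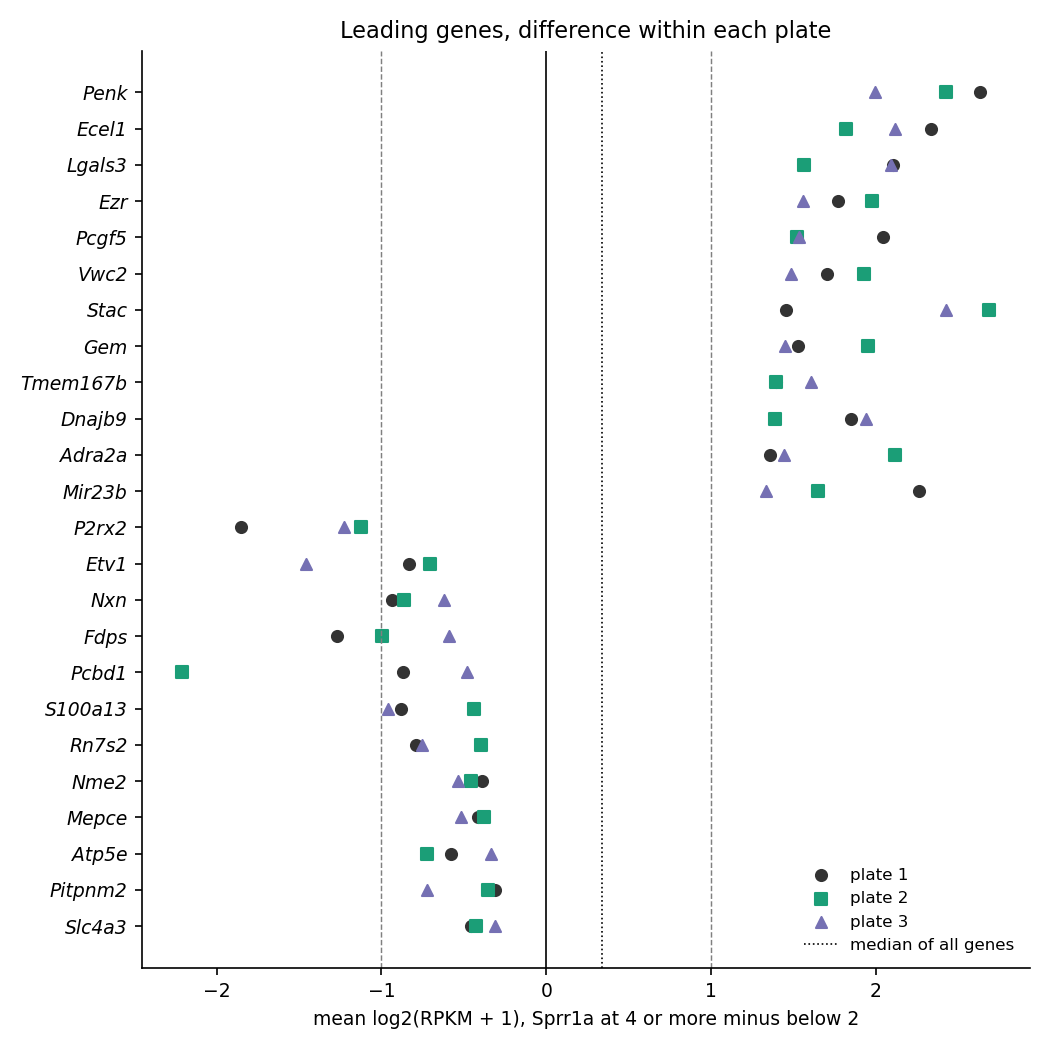
Difference in mean log2(RPKM + 1), Sprr1a-high minus Sprr1a-low neurons, for the 12 leading genes in each direction, with 1 point per plate; dashed lines mark a difference of 1 in size and the dotted line the median of all genes (0.34). The leading higher genes lie above 1 on all 3 plates, from 1.34 upwards, while of the leading lower genes P2rx2 alone lies below -1 on all 3.

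P2rx2, a subunit of ATP-gated ion channels that carry fast excitatory input to enteric neurons, was the counted lower gene. On plate 1 P2rx2 ran from 0 to 7.16 with a median of 1.79 in Sprr1a-high neurons, and from 0 to 9.93 with a median of 5.99 in Sprr1a-low neurons. On plate 2 the medians of P2rx2 were 0.12 and 3.14, and on plate 3 they were 0.62 and 3.88. Cells at 0 occurred in both groups on every plate, and the highest Sprr1a-low cell lay above the highest Sprr1a-high cell on each, at 9.93 against 7.16, 7.25 against 6.22 and 8.67 against 6.75. The difference was -1.85, -1.12 and -1.23 (-1.40 ± 0.39), and -2.27, -1.41 and -1.54 with centred cells. Where cells under 1000000 reads were left out, P2rx2 had a mean difference of -1.21 and no gene was counted as lower.

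No other leading lower gene passed 1 in size on all 3 plates. Etv1, a transcription factor of the ETS family, differed by -0.83, -0.70 and -1.46. Pcbd1, an enzyme that recycles tetrahydrobiopterin, differed by -0.87, -2.21 and -0.48 (-1.19 ± 0.91), and Fdps, an enzyme of isoprenoid and cholesterol synthesis, by -1.27 on plate 1 and -0.59 on plate 3 (-0.95 ± 0.34 over all plates). Nxn, S100a13, Rn7s2, Nme2, Mepce, Atp5e, Pitpnm2 and Slc4a3 had mean differences between -0.81 and -0.40. With centred cells the counted lower genes were Lama5, C1ql1, Gm5454, the mitochondrial tRNA row mt.Tm and P2rx2; none of the first 4 passed 1 on every plate on the deposited scale.

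**Figure D3:**
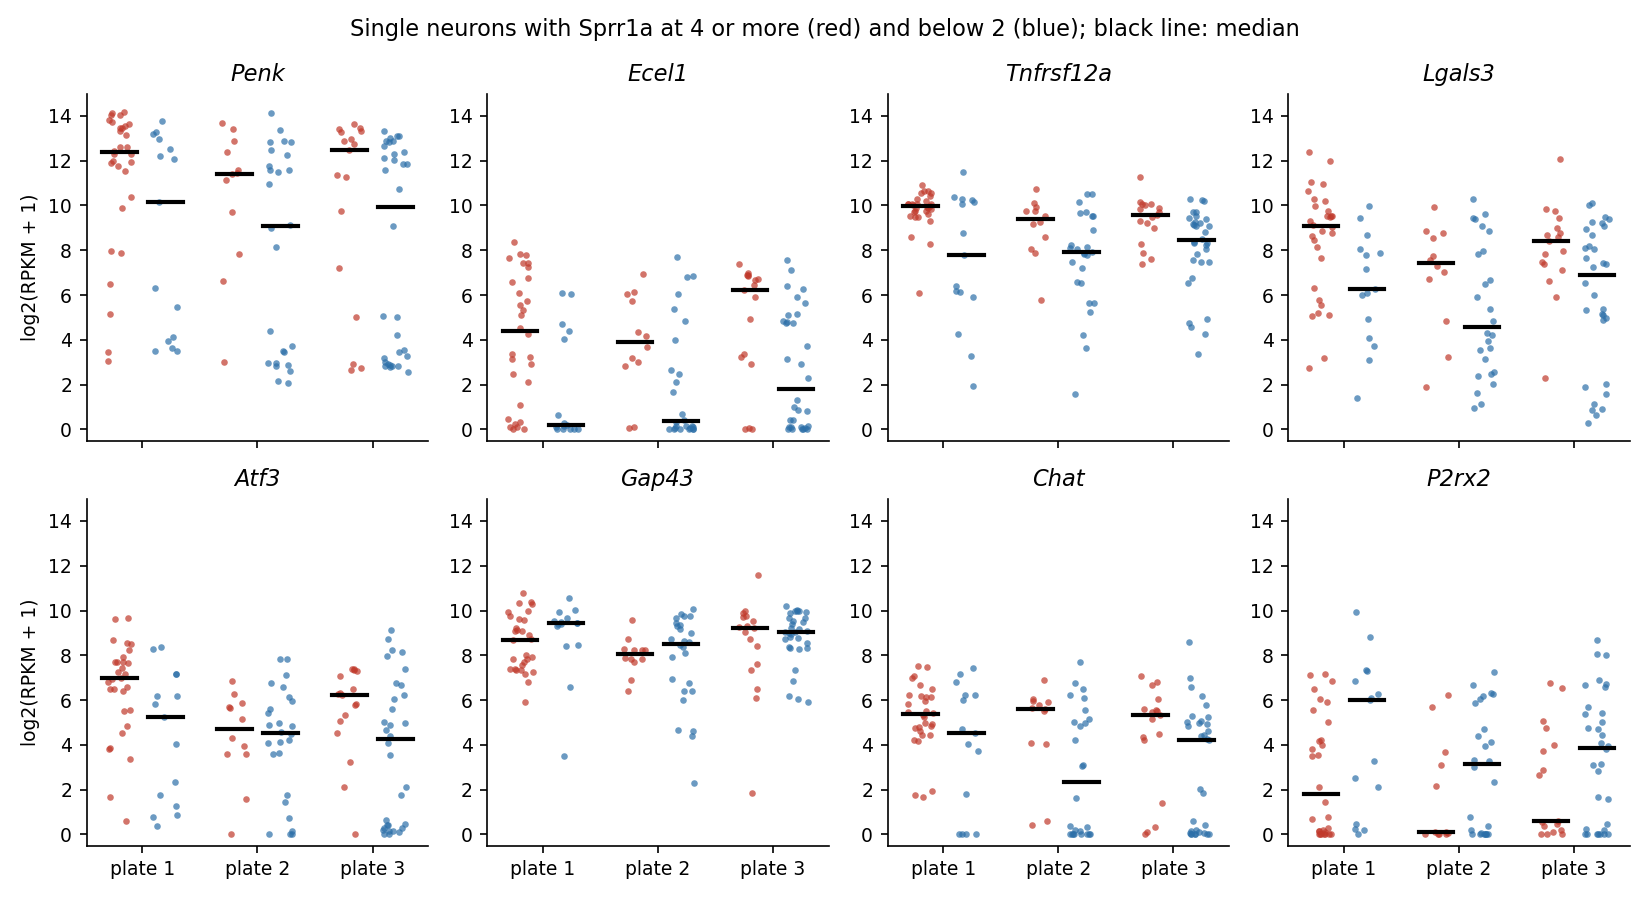
Each compared neuron as a point, log2(RPKM + 1), for 8 genes by plate; red, Sprr1a-high, blue, Sprr1a-low; black lines are medians. Penk splits into a low and a high set of cells in both groups, Gap43 stands at similar levels in both, and P2rx2 has a lower median in Sprr1a-high neurons on each plate.

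The genes known from axon injury did not differ as a block. The axon injury and regrowth list holds 44 genes, of which 32 entered. Of these, 2 were counted as higher (Ecel1 and Tnfrsf12a), beside 0.472% of all genes, and none as lower. Above 0 on every plate lay 17, beside 43.1% of all genes, and below 0 lay 1, Gal. Its median difference was 0.53, beside 0.34 over all genes, and 0.18 with centred cells. Most of that difference from 0 was thus also seen in genes at large. The list was chosen with earlier results of these data known.

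Tnfrsf12a, the receptor of the cytokine TWEAK and a known injury-induced gene of sensory neurons, was abundant in both groups. Its medians in the cells outside the neuron rule were 8.38, 9.28 and 8.47 on plates 1, 2 and 3. High levels were thus not particular to neurons. In Sprr1a-high neurons Tnfrsf12a ran from 6.11 to 10.90 on plate 1 (median 9.96), from 5.79 to 10.75 on plate 2 (median 9.37) and from 7.37 to 11.25 on plate 3 (median 9.57). In Sprr1a-low neurons it ran from 1.94 to 11.51 (median 7.79), from 1.58 to 10.52 (median 7.91) and from 3.35 to 10.30 (median 8.44). High levels of Tnfrsf12a were shared, while low levels were found mainly among Sprr1a-low cells. The difference was 2.23, 1.50 and 1.29 (1.67 ± 0.49).

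Atf3, the stress-induced transcription factor often used to mark axotomised neurons, did not follow Sprr1a on every plate. In Sprr1a-high and Sprr1a-low neurons its medians were 6.97 and 5.25 on plate 1, 4.71 and 4.53 on plate 2, and 6.23 and 4.25 on plate 3. The difference for Atf3 was 2.08, 0.26 and 1.78 (1.37 ± 0.97), and -0.02 on plate 2 with centred cells. By the ratio of mean RPKM it was 1.20, -0.35 and -0.03, so that the direction for Atf3 depends on the scale on plates 2 and 3. Atf3 reached 2 in 28 of 30, 10 of 12 and 16 of 17 Sprr1a-high neurons, and also in 10 of 15, 19 of 26 and 19 of 32 Sprr1a-low neurons. Most Sprr1a-low neurons thus had Atf3 at 2 or more on each plate. Outside the neuron rule the medians of Atf3 were 4.11, 4.82 and 4.38.

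Sox11 differed by 0.94, 0.16 and 1.10 and Jun by 0.17, 0.86 and 0.53, the first of these for Jun turning to -0.97 by the ratio of mean RPKM. Jun had medians of 6.72, 7.47 and 6.76 in Sprr1a-high and 6.68, 6.77 and 6.21 in Sprr1a-low neurons, so that this factor was at similar levels in both. Gap43, a growth cone protein, differed by -0.31, 0.20 and -0.35 (-0.15 ± 0.30), with medians between 8.05 and 9.42 in every group and plate. The neuropeptide gene Gal differed by -0.83, -2.76 and -0.05 (-1.21 ± 1.39), and on plate 2 every compared neuron had Gal at 2.50 or more. Injured sensory neurons are known to induce Gap43 and Gal. In Sprr1a-high neurons Gal was not higher in mean on any plate, and Gap43 was higher on plate 2 only, by 0.20.

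Of the list of injury transcription factors, 22 of 25 genes entered, none was counted, 14 lay above 0 on every plate and the median was 0.70 (0.36 centred). Over all genes, 43.1% lay above 0 and 3.35% below 0 on every plate. Myc, a growth-promoting factor, differed by 0.60, 2.14 and 0.85, and the AP-1 subunit gene Fosl1 by 1.51, 2.19 and 0.29. Among the 9 of 22 genes of the list of cytokines and gp130 signalling that entered, none was counted, 7 lay above 0 on every plate and the median was 0.50; Stat3, the signal transducer of gp130 receptors, differed by 0.78, 0.48 and 0.83. The growth cone and cytoskeleton list (32 of 33 entered) had a median of 0.28, below that of all genes, with 12 genes above and 6 below 0 on every plate and none counted. Among these, the collapsin response mediator gene Dpysl5 differed by 1.42, 0.91 and 0.56, and the neurofilament genes Nefl and Nefm, named after their values were seen, by -0.97, -0.50 and -0.04 and by -0.40, -0.27 and -0.12. By the ratio of mean RPKM, Nefl and Nefm were above 0 on every plate, at 0.19, 0.30 and 0.13 and at 0.49, 0.11 and 0.18, so that their direction depends on the scale.

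Within the Sprr1a-high neurons the level of Sprr1a was set beside that of 7 genes, as a description over cells that share a plate and differ in depth. For Atf3, Spearman's rho was 0.30 over 30 cells on plate 1, 0.70 over 12 on plate 2 and 0.25 over 17 on plate 3. For Srxn1 it was 0.32, 0.39 and 0.22. For Tnfrsf12a it was 0.16, 0.13 and 0.04, and for Lgals3 0.02, 0.06 and 0.40. For Ecel1 it was 0.02, -0.02 and -0.12, for Penk -0.08, 0.40 and -0.15, and for Chat -0.02, -0.29 and 0.06. Several of these values lie near 0, and rho was not taken over all genes. Their signs therefore set none of the 7 genes apart.

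Among the stress lists, that of the integrated stress response had a median above the general shift. The integrated stress response is the pathway in which phosphorylation of a translation factor raises ATF4 and its targets, among them genes of amino acid supply. Of its list of 20 genes, 18 entered and none was counted. Above 0 on every plate lay 12 of them and below 0 on every plate none, beside 43.1% and 3.35% of all genes. The median was 0.92, beside 0.34 over all genes, and it was the highest median among the function lists; with centred cells it was 0.58. The medians by plate were 1.43, 0.87 and 0.51.

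Slc7a5, an amino acid transporter, differed by 2.00, 0.87 and 1.13 (1.33 ± 0.59). Chac1, which degrades glutathione, differed by 2.08, 0.34 and 1.54 (1.32 ± 0.89), and Ppp1r15a, which ends the response by restoring translation, by 0.76, 1.37 and 1.38. Ddit3 (CHOP), named after its values were seen, had medians of 8.28, 8.43 and 6.97 in Sprr1a-high and 7.10, 7.37 and 6.50 in Sprr1a-low neurons and differed by 1.05, 0.87 and 0.81 (0.91 ± 0.12). Trib3, another known ATF4 and CHOP target, differed by 1.40 and 2.12 on plates 1 and 2 but by -0.30 on plate 3. All 18 entered genes of the list were above 0 on plate 1, where the median of all genes was 0.39. Trib3, Phgdh, Nupr1 and Gdf15, named here for this, lay below 0 on plate 3.

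Further genes of secretory and oxidative stress were named after their values were seen. Srxn1, the sulfiredoxin that repairs oxidised peroxiredoxins, was among the 56 counted genes, with 2.50, 1.17 and 1.20 (1.62 ± 0.76). On plate 1 Srxn1 ran from 4.63 to 9.81 in Sprr1a-high neurons and from 0 to 6.99 in Sprr1a-low neurons, with medians of 6.56 and 5.09; on plates 2 and 3 the medians were 6.18 and 5.54, and 6.60 and 6.09. The medians of Srxn1 thus differed less than its means, and it was below 2 in 4 of 15, 7 of 26 and 5 of 32 Sprr1a-low neurons, against 0 of 30, 0 of 12 and 1 of 17 Sprr1a-high neurons. Txndc5, a disulfide isomerase of the endoplasmic reticulum, was also counted, at 1.62, 1.20 and 1.45 (1.42 ± 0.22). Xbp1, the transcription factor of the unfolded protein response, differed by 1.33, 0.97 and 0.95 (1.09 ± 0.21), and the chaperone gene Hspa5 by 0.96, 0.24 and 1.08.

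The heat shock list (12 of 13 entered) had a median of 0.15 and the immediate early list (10 of 15) one of 0.16, both below that of all genes, with none counted. In the list of p53 and cell death genes, 12 of 16 entered, none was counted, 6 lay above 0 on every plate, near the 43.1% of all genes, and the median was 0.57. Mdm2, the ubiquitin ligase that p53 induces, differed by 0.98, 0.87 and 1.14. The list of matrix, adhesion and proteolysis (16 of 27) had a median of 0.36, close to that of all genes, with none counted.

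**Figure D4:**
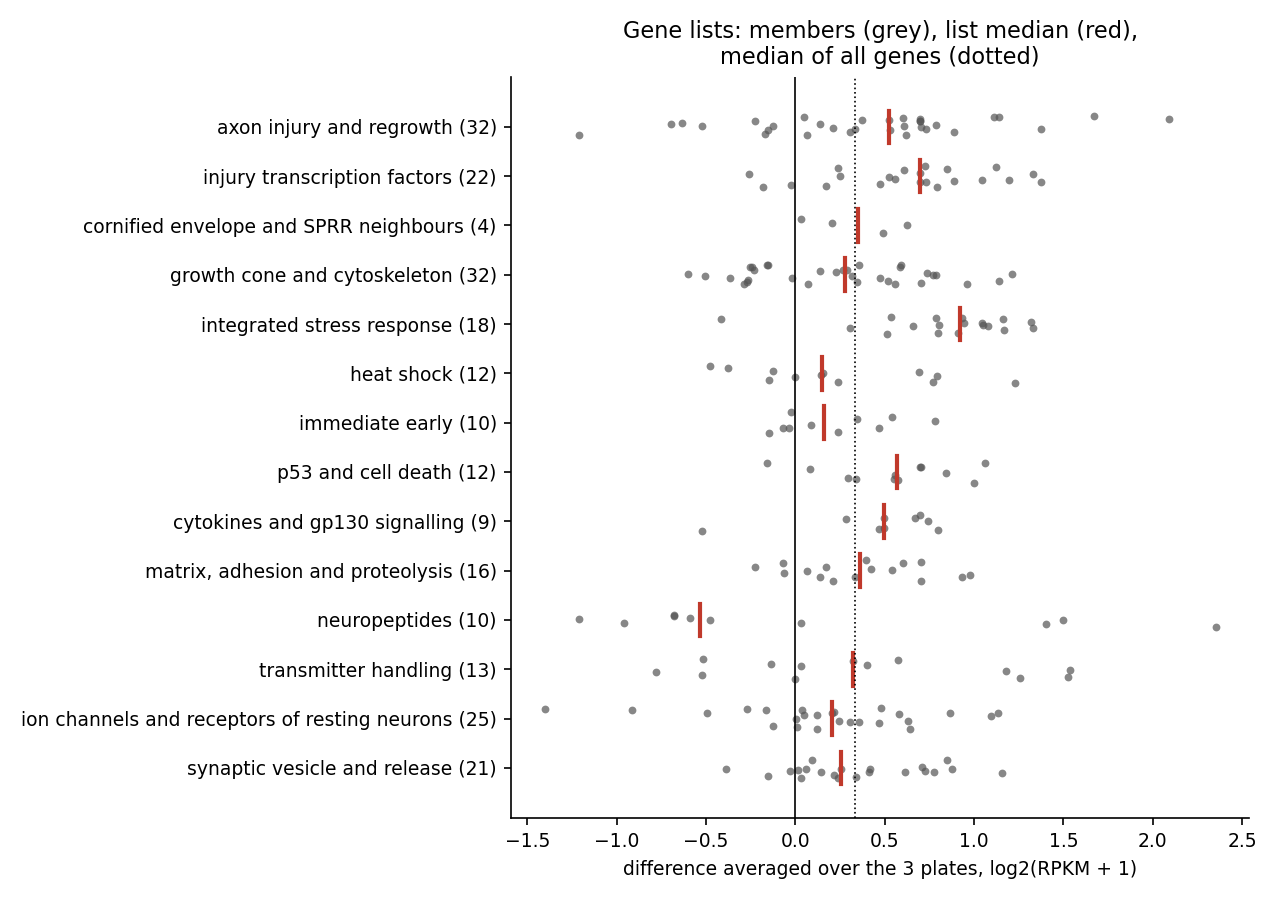
Differences averaged over the 3 plates for the entered members of 14 gene lists (grey points, number entered in brackets), with the list median in red and the median of all genes (0.34) dotted. The integrated stress response has a median of 0.92, injury transcription factors 0.70 and the neuropeptides -0.53.

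The second set of differences concerned the transmitter of the cells. Chat was counted as higher, with 1.33, 1.95 and 1.33 (1.54 ± 0.35). On plate 1 Chat ran from 1.66 to 7.53 in Sprr1a-high neurons (median 5.38) and from 0 to 7.46 in Sprr1a-low neurons (median 4.54). On plate 2 the medians of Chat were 5.61 and 2.33, and on plate 3 they were 5.34 and 4.24. Chat reached 2 in 27 of 30, 10 of 12 and 13 of 17 Sprr1a-high neurons, against 10 of 15, 13 of 26 and 18 of 32 Sprr1a-low neurons. Slc5a7, the choline transporter, was counted too, with 1.16, 1.95 and 1.47 (1.53 ± 0.40). Slc18a3, the vesicular acetylcholine transporter, whose gene lies within Chat, differed by 0.99, 1.47 and 1.08 (1.18 ± 0.26), and acetylcholinesterase (Ache) by 1.75, 0.75 and 1.26 (1.25 ± 0.50). Prima1, which anchors acetylcholinesterase in the membrane, and Slc10a4, a vesicular protein of cholinergic terminals, were also among the 56, at 1.33 ± 0.25 and 1.40 ± 0.15. Gm2990, another of the 56, overlaps Chat and cannot be told apart from it.

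Nos1 differed by -0.44, -1.37 and -0.52 and was not counted. Slc17a6, the gene behind the reporter, differed by -0.36, -0.23 and 0.59, with a mean over plates of 0.00. Of the transmitter handling list, 13 of 19 genes entered and the median was 0.32. Counted as higher were 2 (Chat and Slc5a7), beside 0.472% of all genes. On every plate 7 lay above 0 and 2 below 0, beside 43.1% and 3.35% of all genes.

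Neuropeptide genes went in both directions. Of 18 in the list, 10 entered and the median was -0.53. Counted as higher were 2 (Penk and Adcyap1), beside 0.472% of all genes. On every plate 3 lay above 0 and 4 below 0, beside 43.1% and 3.35% of all genes. Adcyap1, the gene of the peptide PACAP, differed by 1.00, 1.93 and 1.56 (1.50 ± 0.47); its medians were 6.59, 6.22 and 5.56 against 4.78, 0.88 and 1.52. Tac1, the gene of substance P, which excitatory enteric neurons make with acetylcholine, differed by 1.29, 0.84 and 2.06, but reached 2 in fewer than 1 in 2 neurons of either group. Vip, a peptide gene of inhibitory neurons named after its values were seen, differed by -0.20, -2.61 and -0.08, so that its lower level rested on plate 2. In the list of ion channels and receptors 25 of 30 genes entered, P2rx2 alone was counted, and the median was 0.21; the sodium channel gene Scn9a differed by 1.42, 0.83 and 1.15, and the pacemaker channel gene Hcn3 by 1.26, 1.28 and 0.75. The synaptic vesicle list (21 of 23) had a median of 0.25 and no counted gene.

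The share of Sprr1a-high cells was then taken by class, with Chat and Nos1 each at 2 or more. Of neurons with Chat and without Nos1, 35 of 76 were Sprr1a-high (46.1%, interval 34.6 to 57.9%), and of neurons with both 15 of 31 (48.4%, 30.2 to 66.9%). Of neurons with Nos1 and without Chat, 3 of 26 were (11.5%, 2.45 to 30.2%), and of those with neither 6 of 16 (37.5%, 15.2 to 64.6%). On plate 2 the share was 9 of 23 with Chat alone and 1 of 12 with Nos1 alone, and on plate 3 it was 9 of 26 and 2 of 12. Plate 1, which had the largest Sprr1a-high share, held 27 of the 76 neurons with Chat alone. It held only 2 of the 26 with Nos1 alone, neither of them Sprr1a-high. The shares pooled over plates therefore mix class with plate. Taking Chat alone, the share was 60.0%, 37.0% and 37.1% with it and 37.5%, 12.5% and 22.2% without it. The order was the same on each plate, while the intervals of the 2 classes overlap within each plate. By Slc17a6 the share was 37 of 86 neurons that had it and 22 of 63 that did not. By plate it was 53.5% against 70.0%, 27.8% against 28.0% and 36.0% against 28.6%, so that the order was not the same on each plate.

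**Figure D5:**
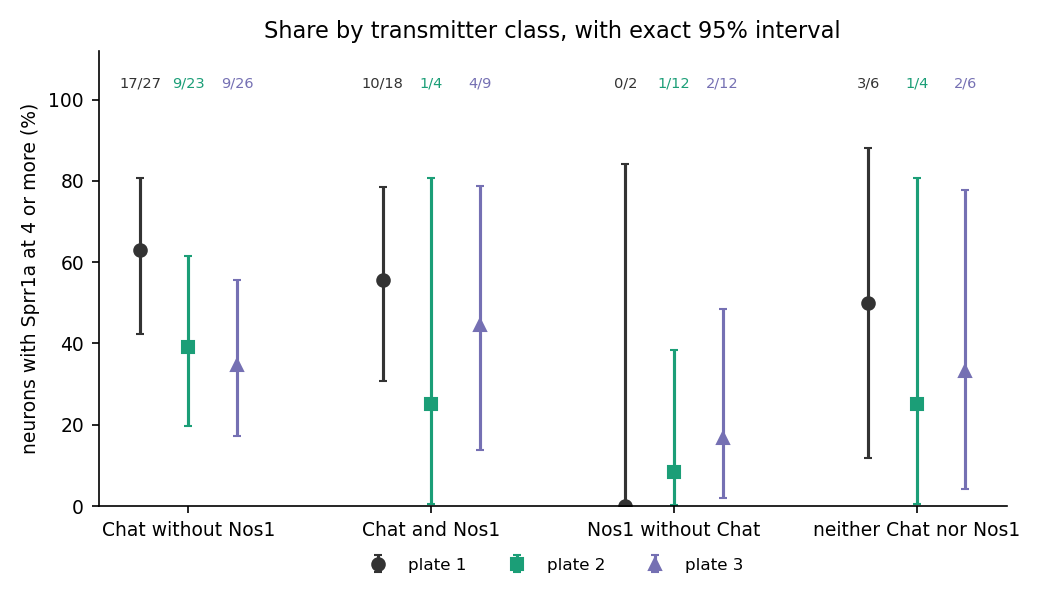
Share of neurons with Sprr1a at 4 or more, in percent, by class (Chat and Nos1 each at 2 or more) and plate, with exact 95% intervals for counting error and the cell numbers above. Nos1 neurons without Chat have 0 of 2, 1 of 12 and 2 of 12 Sprr1a-high cells on plates 1, 2 and 3, against 17 of 27, 9 of 23 and 9 of 26 for Chat neurons without Nos1.

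Because class and Sprr1a went together, the comparison was repeated in Chat neurons alone, with 27, 10 and 13 Sprr1a-high and 10, 13 and 18 Sprr1a-low cells. In these 25 genes were higher (0.207% of 12089) and 1 was lower (0.00827%), P2rx2 again; 10 of the 56 were among the 25. Chat, which chose these neurons, then differed by -0.06, 0.23 and 0.37, which is no finding. Slc5a7 differed by -0.08, 0.03 and 0.61, Slc18a3 by -0.21, 0.10 and 0.23, and Prima1 by 0.15, 0.39 and 0.47. Ache differed by 0.58, 0.57 and 1.24 and Slc10a4 by 0.23, 0.53 and 2.28, so that the acetylcholine genes did not all behave alike. Ecel1 differed by 2.09, 1.47 and 1.74, Vwc2 by 2.59, 1.79 and 1.90 and Pcgf5 by 1.55, 1.34 and 1.69. Ezr (1.42, 1.05 and 1.14), Srxn1 (2.01, 1.73 and 1.13) and Txndc5 (1.63, 1.71 and 1.04) also stayed above 1 on every plate. For Penk the values were 2.32, 0.29 and 1.07, for Lgals3 0.68, 0.90 and 0.90, and for Tnfrsf12a 1.31, 0.52 and 1.43. P2rx2 differed by -2.37, -1.03 and -1.34. Ecel1, Vwc2, Pcgf5, Ezr, Srxn1, Txndc5 and P2rx2 thus passed 1 in size on every plate among Chat neurons too.

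The upstream sequences of Sprr1a and of counted genes were searched for the binding letters of AP-1, the dimer of Jun and Fos family proteins or ATF3, since members of this family are injury factors. The motif was TGANTCA, read on both strands in the 250 bases before the RefSeq start (GRCm38.p6). The sequences of Sprr1a, Srxn1 and Ezr are shown because Sprr1a chose the cells and the other two were counted genes that hold the motif; capitals mark the motif. The regions are chr3:92485882-92486131 on the minus strand for Sprr1a, chr2:152105274-152105523 on the plus strand for Srxn1 and chr17:6782781-6783030 on the minus strand for Ezr.
Sprr1a: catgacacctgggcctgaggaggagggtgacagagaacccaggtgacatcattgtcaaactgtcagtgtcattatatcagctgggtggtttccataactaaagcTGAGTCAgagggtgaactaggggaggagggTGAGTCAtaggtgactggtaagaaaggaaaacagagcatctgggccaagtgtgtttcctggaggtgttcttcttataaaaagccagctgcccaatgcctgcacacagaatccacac
Srxn1: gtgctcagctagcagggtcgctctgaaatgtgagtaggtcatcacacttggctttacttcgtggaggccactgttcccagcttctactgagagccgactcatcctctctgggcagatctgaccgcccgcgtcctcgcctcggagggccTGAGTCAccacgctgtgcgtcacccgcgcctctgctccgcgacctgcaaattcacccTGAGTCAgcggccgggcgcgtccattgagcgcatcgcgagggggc
Ezr: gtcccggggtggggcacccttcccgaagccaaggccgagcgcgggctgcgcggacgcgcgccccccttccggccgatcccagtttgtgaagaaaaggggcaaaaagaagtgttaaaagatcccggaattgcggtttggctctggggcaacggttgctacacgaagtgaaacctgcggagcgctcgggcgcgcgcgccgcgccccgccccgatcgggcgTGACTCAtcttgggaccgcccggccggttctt
In Sprr1a the matches begin at -146 and -116 from the start, in Srxn1 at -102 and -45 and in Ezr at -32. Of the 56 higher genes, 41 were in the table of promoters and 3 held a match (7.32%), namely Srxn1, Ezr and Cul1. Over all 32851 promoters 6.75% held one, and of 27025 gene symbols 7.82% had a promoter with one, so that the share among the counted genes was close to the background. A match is a run of letters and not a bound site.

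Sprr1a lies in a cluster of related genes on chromosome 3, and 16 other SPRR genes are in the table. None had a mean of 1 over the compared neurons and 7 were at 0 in every compared neuron, among them Sprr1b and Sprr3. Sprr2 transcripts appeared in a minority of cells: at least 1 of 11 Sprr2 genes reached 2 in 16 of the 59 Sprr1a-high neurons (27.1%, interval 16.4 to 40.3%) and in 1 of the 73 Sprr1a-low neurons (1.37%, 0.0347 to 7.40%). By plate these were 10 of 30, 4 of 12 and 2 of 17 against 1 of 15, 0 of 26 and 0 of 32. The limit of 2 for Sprr2 was chosen after its values were seen. Sprr2a3 was the most frequent, at 2 or more in 11 Sprr1a-high and no Sprr1a-low neurons, and Sprr2h reached the highest level, 9.51. None of the 17 neurons between the limits of Sprr1a had an Sprr2 gene at 2. Sprr2 genes are near-identical copies, so that the counting may have split reads among them, and which of them was expressed is uncertain.

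Markers of epithelium moved with the Sprr2 genes. The epithelial list of 8 genes was carried by 9 of the 16 Sprr1a-high neurons with Sprr2 and by 1 of the 43 without it. By plate it was carried by 7 of 30, 3 of 12 and 0 of 17 Sprr1a-high neurons and by 0 of 15, 2 of 26 and 1 of 32 Sprr1a-low neurons. Its summed level ran from 0 to 3903 RPKM in Sprr1a-high and from 0.175 to 150 RPKM in Sprr1a-low neurons of plate 1, from 2.66 to 1055 RPKM against 2.73 to 73.4 RPKM on plate 2, and from 0 to 10.7 RPKM against 0 to 3488 RPKM on plate 3. On plate 3 Krt20 was at 0 in every compared neuron and Cdh1 (E-cadherin) in every Sprr1a-high neuron. Both plate 3 neurons with Sprr2 carried no other list, and their Sprr1a levels were 8.64 or more. The keratin genes Krt8 and Krt18 reached 2 in 8 and 11 of 30 Sprr1a-high neurons on plate 1, against 1 and 2 of 15 Sprr1a-low neurons. On plate 2 these were 4 and 3 of 12 against 9 and 11 of 26, and on plate 3 none of 17 against 3 and 1 of 32. The differences were 1.08, 0.71 and -0.70 for Krt8 and 0.95, 0.52 and -0.32 for Krt18, so that plate 3 went the other way. Whether this RNA belonged to the neurons or to other cells picked with them was not tested. Some neurons carried a smooth muscle, fibroblast, glia, endothelial, leukocyte, epithelial or mesothelial list. They numbered 10 of 30, 4 of 12 and 3 of 17 among Sprr1a-high and 3 of 15, 9 of 26 and 9 of 32 among Sprr1a-low cells. The interstitial cell, keratinocyte and extrinsic sensory neuron lists were not used for this. Without the neurons so numbered, 43 genes were counted as higher, of which 19 were among the 56. Ecel1, Penk and P2rx2 then had mean differences of 1.75, 2.29 and -1.55.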

How the data were processed

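The series holds 1 deposited table with 49492 gene rows and 1 column for each of 204 cells, made from a plate-based single-cell library kit. The authors deposited log2 values of RPKM, that is, log2(RPKM + 1); the values themselves gave the base and the added 1, which no source states. The submitters' processing notes name the build mm10. Aligner, counter and strandedness were not given in the sources used here, so antisense pairs of genes were not separated. Per the labels' protocols, wells received their own barcode and were pooled by plate before amplification; no molecular identifier is named, so values count reads.

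Read totals were taken from the steps between low RPKM values with GENCODE M21 exon lengths, where for 28773 of 32967 length-matched genes with a value, every value was a whole read within 0.001. Totals ran from 453108 to 14310837 reads per cell and served for the depth alternatives only. Gene positions come from that annotation, promoters from RefSeq (GRCm38.p6).

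Genes entered with a mean of at least 1. Differences of mean log2(RPKM + 1) were taken within plates with at least 5 cells in each group and averaged over the 3 plates with equal weight. With a pseudocount of 1, differences of low genes are understated. The design was fixed for such differences with no test, since cells of a plate are not replicates. Named genes are the 12 in each direction with the largest smallest-plate difference (2 or more in 50% of the cells of the higher group; mitochondrial, ribosomal, Rik and Gm genes left out), in each of 25 lists the 3 members with the largest mean difference of the same sign on every plate, Atf3, Jun, Sox11, Gap43, Gal, Chat, Nos1, Slc17a6 and every SPRR gene; others were named after their values were seen. Not every gene that the rule picked is described, and 1 is withheld and not reported here. The compared groups and the lists were chosen with earlier results of these data known. The code of the comparison was run on simulated normal values with known differences, for genes above a higher limit on the mean than here. Those values had no general shift, depth difference or split genes, so that they do not bear on the counted genes. No doublet caller was run on hand-picked cells. Python 3.11.15, numpy 2.4.6, pandas 2.3.3 and scipy 1.17.1 were used.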

Additional observations from a re-analysis of the deposited data

How the results depend on the processing

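The number of counted genes depended strongly on the processing. For 20 counted named genes, 320 values were taken under the alternatives. Of these, 225 stayed within 1 SD over plates of the reported one, 95 moved further and 0 changed sign. Counted genes had the same sign on every plate by the rule. Their sign could therefore not change where a plate was left out or the filter on low values was dropped. On the deposited scale 56 genes were higher and 1 lower. The numbers of higher and lower genes were 11 and 19 by the log2 ratio of mean RPKM, 619 and 4 with a pseudocount of 0.1, and 231 and 4 with medians over cells. They were 39 and 2 with Sprr1a at 5 or more against below 1, and 24 and 1 with the limit at 3 for both groups. With all 5 neuronal genes required they were 27 and 1. Without neurons that carry a smooth muscle, fibroblast, glia, endothelial, leukocyte, epithelial or mesothelial list, the numbers were 43 and 2. They were 25 and 1 in Chat neurons, 33 and 0 without cells under 1000000 reads, and 27 and 1 with the read total as a covariate. Leaving out a plate, so that 2 plates had to pass, gave 198 and 12 without plate 1, 277 and 4 without plate 2, and 284 and 7 without plate 3. A difference of at least 2 on every plate was reached by 0 genes in either direction. With each cell's mean taken off the numbers were 11 and 5, and against neurons with Sprr1a at exactly 0, on the 2 plates with enough such cells, 506 and 15; both of these alternatives were chosen after seeing the data. Of the 56 higher genes, those also counted numbered 56 with a pseudocount of 0.1, 20 with medians, 22 with the wider limits, 20 with the limit at 3, 19 with all 5 genes, 26 without shallow cells and 22 with the covariate; apart from the setting without shallow cells and the difference of 2, P2rx2 was counted in each.

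The median difference of the injury list, 0.53, was 0.147 by the ratio of mean RPKM, 0.253 in Chat neurons, 0.217 with no filter on low values and 0.185 with centred cells. The cause of these changes was not tested. Plate 2 decided the value of Atf3, whose mean difference was 1.93 without it and 1.37 with it. No paired analysis was possible because cell numbers shared between plates only name wells, and both groups lie within each plate. With 12 Sprr1a-high cells on plate 2 and 15 Sprr1a-low cells on plate 1, single cells bear on each value.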

Other observations

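Several of the 56 higher genes belong to none of the lists. Ramp1, which turns the calcitonin receptor-like receptor into the receptor for calcitonin gene-related peptide, differed by 1.44, 1.09 and 1.01 on plates 1, 2 and 3. Grn, the gene of the lysosomal and growth-promoting protein progranulin, differed by 1.98, 1.02 and 1.23, and by 1.73, 1.29 and 0.89 in Chat neurons. Sptlc1, a subunit of the enzyme that starts sphingolipid synthesis, differed by 1.69, 1.00 and 1.30, and by 1.31, 1.37 and 1.12 in Chat neurons. Actr3, a subunit of the actin-nucleating Arp2/3 complex, and Coro1b, which regulates that complex, differed by 1.25, 1.07 and 1.03 and by 1.39, 1.13 and 1.02. The Mir27b row, in the same host transcript as Mir23b and likewise very short, differed by 2.74, 1.13 and 1.17. These genes were named after their values were seen.

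Some genes known from subtypes of enteric neurons, also named after their values were seen, differed with the same sign on every plate without being counted. Gfra2, the receptor of neurturin, was higher in Sprr1a-high neurons by 0.78, 1.56 and 1.00. Calb2 (calretinin) differed by -0.56, -0.78 and -0.31, although by the ratio of mean RPKM its plate 2 value was 1.00. Htr3a, a serotonin-gated channel subunit, differed by -1.15, -0.99 and -0.62, with a plate 3 value of 0.31 by that ratio. Dbh, dopamine beta-hydroxylase, differed by -0.47, -0.49 and -0.60, and by -0.98, -2.05 and -1.18 in Chat neurons. The list of extrinsic sensory neurons was carried by 2 of the 15 Sprr1a-low neurons of plate 1 and by no other compared neuron.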
